A study of Mus musculus with 48 samples.

Results

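The Rab genes code for the largest branch of the Ras-like small GTPases, and they were taken here as the protein-coding mouse genes whose symbol is Rab followed by a number and at most 1 letter. Of the 48526 gene rows in the count table, 59 met this rule. A Rab protein is loaded with GTP by a guanine nucleotide exchange factor (GEF), recruits effectors while it sits on its membrane, and is switched off by a GTPase-activating protein (GAP). A GDP dissociation inhibitor (GDI) then takes the prenylated protein back to the cytosol. Each member marks its own membrane, from the endoplasmic reticulum and Golgi over early, recycling and late endosomes to secretory vesicles, and at the synapse Rab3 proteins ride on synaptic vesicles while Rab5 proteins act in endocytic recycling.

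The 48 RNA-seq libraries came from the cerebral cortex of 12 male wild-type C57BL/6JRj mice, 4 at 3 weeks (3w, mice 187 to 190), 4 at 5 months (5m, mice 191 to 194, given as 6 months in the sample labels) and 4 at 18 months (18m, mice 195 to 198). Each mouse gave 4 fractions: total homogenate (input TH), synaptosomes, which are pinched-off nerve endings taken from a sucrose density gradient (input SYN), and from both of them the pellet below a sucrose cushion, which is enriched in ribosomes and the mRNA bound to them (SC TH and SC SYN). No mouse was treated, and all cushion lysates and cushions held the translation blocker cycloheximide. The question of the design was how the RNA of the synapse and of its ribosomes differs from that of the whole cortex, and how it changes from the juvenile to the adult and the aged brain.

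Rab31 and Rab8b were 2 of the 3 genes whose level changed between 3w and 5m in more than 1 fraction, so the stretch before their start is shown. Rab31 lies on the minus strand of GRCm38 at chr17:65651729-65772752 and Rab8b on the minus strand at chr9:66843664-66919687. The 250 bases directly upstream of the RefSeq start (GRCm38.p6), which belong to neither gene's transcript, cover chr17:65772753-65773002 for Rab31 and chr9:66919706-66919955 for Rab8b. Capitals mark every GGGCGG and CCAAT, searched on both strands, so that CCAAT on the opposite strand reads ATTGG.
Rab31: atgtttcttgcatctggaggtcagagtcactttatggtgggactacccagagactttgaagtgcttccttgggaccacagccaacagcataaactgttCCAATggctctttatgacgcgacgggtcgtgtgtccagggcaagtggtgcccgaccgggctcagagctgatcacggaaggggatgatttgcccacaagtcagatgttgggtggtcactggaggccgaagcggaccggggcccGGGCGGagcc
Rab8b: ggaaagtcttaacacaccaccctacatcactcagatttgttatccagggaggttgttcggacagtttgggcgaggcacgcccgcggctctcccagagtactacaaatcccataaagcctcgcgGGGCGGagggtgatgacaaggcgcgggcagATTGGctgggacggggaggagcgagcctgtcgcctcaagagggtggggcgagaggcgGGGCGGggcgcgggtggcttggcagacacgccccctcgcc
The Rab31 window held 12 CpG and 57.6% GC, with GGGCGG 10 bases before the start. In the Rab8b window there were 20 CpG and 64.4% GC, with GGGCGG at 40 and 127 bases before the start. Over all 32851 mouse windows of this length the median was 6 CpG and 52.4% GC, 32.7% held GGGCGG and 33.8% held CCAAT. The TATA box TATAAA occurred in 12.4% of windows, the E-box CACGTG in 6.02% and the cAMP response element TGACGTCA in 1.55%, and in neither of the windows printed here.

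Totals ran from 1780267 to 18590040 counts per library, with the input SYN libraries the shallowest (median 3756951). Rab genes took 0.335% to 0.495% of the counts in TH libraries and 0.230% to 0.315% in SYN libraries. The 2 compartments differed in composition: trimmed-mean (TMM) scaling factors were 1.15 to 1.24 in TH and 0.801 to 0.884 in SYN. In the SC fractions, astrocyte markers were higher in SYN (10 of 10 genes at each age, summed 18941 to 22280 CPM, which are counts scaled by the TMM-adjusted library size, against 7065 to 8151), and so were 9 of 10 microglia markers at 3w and 10 of 10 later, and 8 or 9 of 10 mRNAs known from excitatory dendrites. Summed oligodendrocyte markers were also higher in SC SYN, at 9543 to 11666 CPM against 4146 to 5149 at 3w. At 5m they stood at 3607 to 4038 CPM against 2128 to 2286. Oligodendrocyte precursor sums were higher too, and endothelial and erythrocyte sums were lower. Nuclear RNAs were lower (6, 6 and 5 of 6 genes at 3w, 5m and 18m). Of all genes 31.1%, 32.1% and 29.9% were higher in SC SYN at these ages and 32.4%, 35.8% and 32.2% lower. Of 10 general neuronal markers 6, 7 and 7 were lower in SC SYN, but their summed level was higher there (8506 to 10437 CPM against 5801 to 7180). No marker was at 0 in all 4 libraries of any group, and the part of these cell types in the Rab results was not tested. In bulk RNA, fewer cells or endings of a type and less RNA in each of them cannot be told apart. Among the 12 input TH libraries, that of mouse 191 correlated least with its 3 mates (lowest Spearman rho 0.985), and results are given without it where it mattered.

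Rab mRNA was dominated by a few genes. On the scale of CPM per kb of exon, which allows levels to be compared between genes, the 5 highest genes made up 41.6% of the Rab total in input TH, 50.3% in SC TH, 44.9% in input SYN and 47.4% in SC SYN. Rab6b, the neuronal form of the Golgi Rab6, led in input TH at 117 ± 10.0 CPM per kb (SD, n = 12 libraries), in input SYN at 121 ± 14.6 and in SC SYN at 107 ± 16.9. In SC TH the leading gene was Rab3a, the main Rab of synaptic vesicle exocytosis, at 144 ± 26.1 CPM per kb. Its gap to Rab6b at 132 ± 10.6 was smaller than the larger SD. These SDs take in all ages, and the genes were measured in the same libraries, so the order of neighbours was not tested. In SC SYN the 5 leading genes were Rab6b, Rab5c (90.3 ± 11.6), Rab3a (88.5 ± 18.7), Rab7 (75.0 ± 3.40) and Rab6a (68.4 ± 23.9), and each gap between neighbours was smaller than the larger SD. Rab5c, an early endosome Rab, stood second there and only eighth in input TH, at 34.1 ± 2.74 CPM per kb. At the other end, 14 genes in input TH and in SC TH, 15 in input SYN and 13 in SC SYN stayed under 1 CPM per kb. Rab17, an epithelial Rab, had 8 counts over all 48 libraries, Rab19 had 23, Rab44 had 29 and Rab25 had 35.

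**Figure D1:**
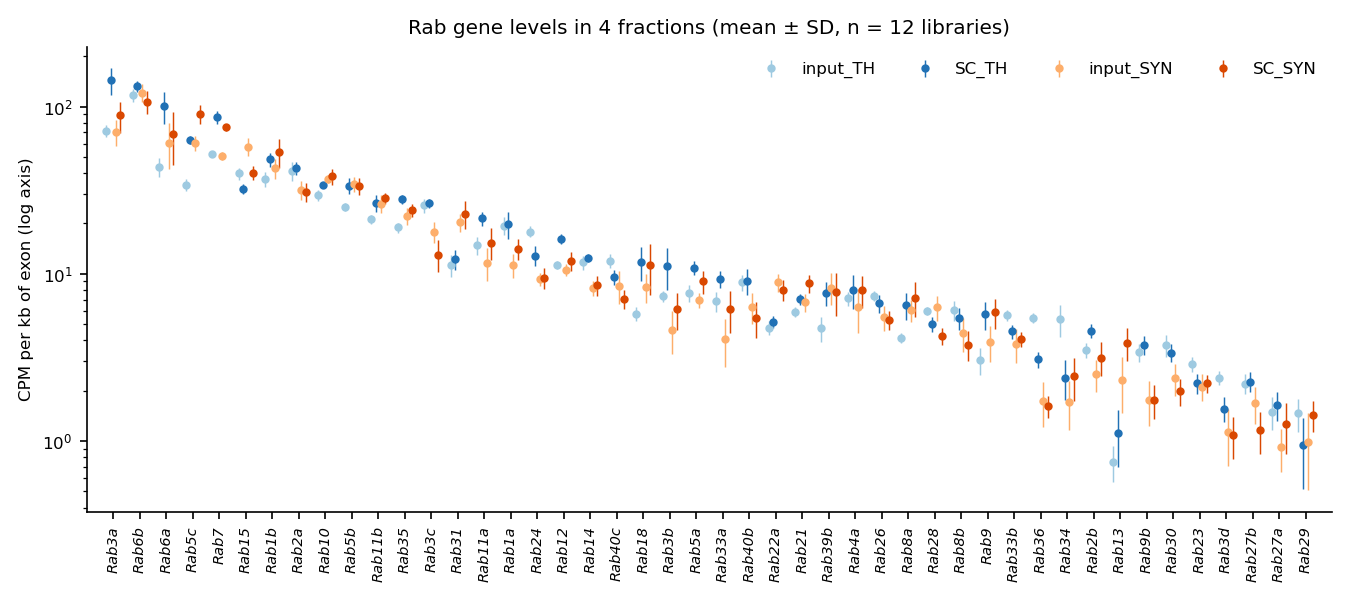
Mean level with SD over the 12 libraries of each fraction, in CPM per kb of exon on a log axis, for the Rab genes that reached 1 CPM per kb in at least 1 fraction. Points of the 4 fractions stand side by side for each gene. Rab3a, Rab6b, Rab6a, Rab5c and Rab7 are at the left, and Rab13 and Rab31 have their SYN points above their TH points.

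The first question was which Rab mRNAs differ between the ribosome pellets of synaptosomes and of homogenate. This comparison does not separate ribosome binding from the level of an mRNA in its compartment. Of 6 tested early endosome Rabs 4 were higher in SC SYN than in SC TH at each age and 1 was lower at 18m, and of 8 Rabs of regulated secretion 3, 6 and 6 were lower at 3w, 5m and 18m and none was higher. Among 50 Rab genes tested, 8 were higher and 14 lower in SC SYN at 3w, against 31.1% and 32.4% of all 16630 genes. At 5m the counts were 10 higher and 23 lower (32.1% and 35.8% of all genes), and at 18m 9 higher and 22 lower (29.9% and 32.2%). The median log2 fold change of the Rab genes was -0.16, -0.24 and -0.21 at the 3 ages, beside -0.04, -0.09 and -0.07 over all genes. Called at every age in the same direction were 6 higher genes (Rab13, Rab15, Rab21, Rab22a, Rab31 and Rab5c) and 10 lower genes (Rab12, Rab14, Rab27b, Rab30, Rab36, Rab3c, Rab40b, Rab40c, Rab8b and Rab9b), and none was called in opposite directions.

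The regulated secretion group holds the Rab3 and Rab27 genes with Rab26 and Rab37. None of its 8 members was higher in SC SYN, and 3, 6 and 6 were lower at 3w, 5m and 18m (median log2 fold change -0.56, -0.78 and -0.72). At 5m Rab3c, a synaptic vesicle Rab, stood at 87.8, 140, 144 and 140 CPM in the 4 SC SYN libraries and at 316, 332, 332 and 278 CPM in SC TH. The 2 fractions did not overlap, and the log2 fold change was -1.24 ± 0.14 (SE, n = 4 mice, adjusted p = 2e-08, edgeR's quasi-likelihood test with Benjamini-Hochberg adjustment, as for all adjusted p-values below). Rab27b, which docks secretory vesicles, stood at 6.29, 12.3, 9.06 and 12.0 CPM in SC SYN and at 23.9, 23.6, 23.5 and 18.4 CPM in SC TH (-1.09 ± 0.20, adjusted p = 2.7e-05). After removal of the part of each change that tracked GC content and gene length (GC and length correction), Rab27b was at -0.26 (adjusted p = 0.11) at 5m and at 0.13 at 3w, and lost its call at both ages. At 18m it was still called lower after this correction.

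Rab3a was called lower in SC SYN at 5m and 18m but not at 3w. At 3w its SC SYN libraries stood at 238, 133, 166 and 260 CPM and its SC TH libraries at 232, 214, 335 and 282 CPM. The values overlapped, and the log2 fold change was -0.37 ± 0.17 (adjusted p = 0.061). With the mouse as a block, since both fractions came from the same animals, it was -0.40 and passed the threshold (adjusted p = 0.030). At 5m Rab3a was at 157, 200, 194 and 192 CPM in SC SYN and at 369, 272, 319 and 334 CPM in SC TH (-0.74 ± 0.17, adjusted p = 0.00044). At 18m it was at 177, 247, 244 and 157 CPM against 365, 389, 386 and 340 CPM (-0.78 ± 0.17, adjusted p = 0.00031). Every SC SYN library lay below every SC TH library at both later ages. Whether the 3w and 5m differences themselves differ was tested as an interaction, which gave -0.37 ± 0.24 (adjusted p = 0.76). Rab3b, its paralog, was lower in SC SYN at 18m (-1.02 ± 0.18, adjusted p = 3.3e-05).

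The early endosome group, with the Rab5 genes, Rab21, Rab22a and Rab31 among its 6 tested members, had 4 members higher at each age and 0, 0 and 1 lower (median log2 fold change 0.52, 0.43 and 0.39). Rab31, which carries cargo between the trans-Golgi network and endosomes, stood at 67.0, 71.1, 77.7 and 84.0 CPM in SC SYN at 5m and at 42.6, 42.1, 42.2 and 40.1 CPM in SC TH. All SC SYN libraries were above all SC TH libraries, and the log2 fold change was 1.06 ± 0.11, 0.90 ± 0.11 and 0.88 ± 0.11 at 3w, 5m and 18m (adjusted p = 1.5e-08, 1.4e-07 and 2.8e-07). Rab5c stood at 256, 204, 171 and 198 CPM in SC SYN at 5m and at 123, 145, 152 and 136 CPM in SC TH (0.63 ± 0.11, adjusted p = 1.5e-05). Rab22a, a relative of Rab31 on early endosomes, was higher by 0.64 ± 0.13 at 3w and 0.91 ± 0.12 at 18m (adjusted p = 0.00011 and 6.8e-07).

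Among Rabs of plasma membrane delivery and the cilium, 2, 2 and 3 of 9 were higher and 4, 4 and 5 lower. Rab13, which delivers cargo to cell junctions, had the largest positive fold change of the 50 genes at each age, at a low level. At 5m it stood at 8.09, 8.19, 5.24 and 9.09 CPM in SC SYN and at 2.31, 4.54, 2.27 and 2.75 CPM in SC TH. The fractions did not overlap, and the log2 fold change was 1.83 ± 0.27 at 3w, 1.48 ± 0.25 at 5m and 2.29 ± 0.25 at 18m (adjusted p = 2.1e-06, 9.9e-06 and 3.1e-08). Rab40b, which joins a ubiquitin ligase through its SOCS box, was lower at 18m (-0.95 ± 0.18, adjusted p = 8.1e-05).

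Golgi and endoplasmic reticulum Rabs were lower more than higher, with 0, 1 and 0 of 14 higher and 4, 8 and 6 lower (median -0.21, -0.45 and -0.36). Rab36, a Golgi Rab, was at -0.97 ± 0.14 at 3w (adjusted p = 2.2e-06). Late endosome Rabs split, with 0, 2 and 1 of 6 higher and 1, 3 and 3 lower. Rab9b, a paralog of the late endosome Rab9, stood at 6.29, 8.19, 5.84 and 5.84 CPM in SC SYN at 5m and at 17.2, 17.5, 12.5 and 13.95 CPM in SC TH (-1.17 ± 0.17, adjusted p = 1.9e-06). It was lower at 18m as well (-1.06 ± 0.17, adjusted p = 8.6e-06). Of 7 recycling endosome Rabs, 2, 1 and 1 were higher and 2, 2 and 1 lower.

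**Figure D2:**
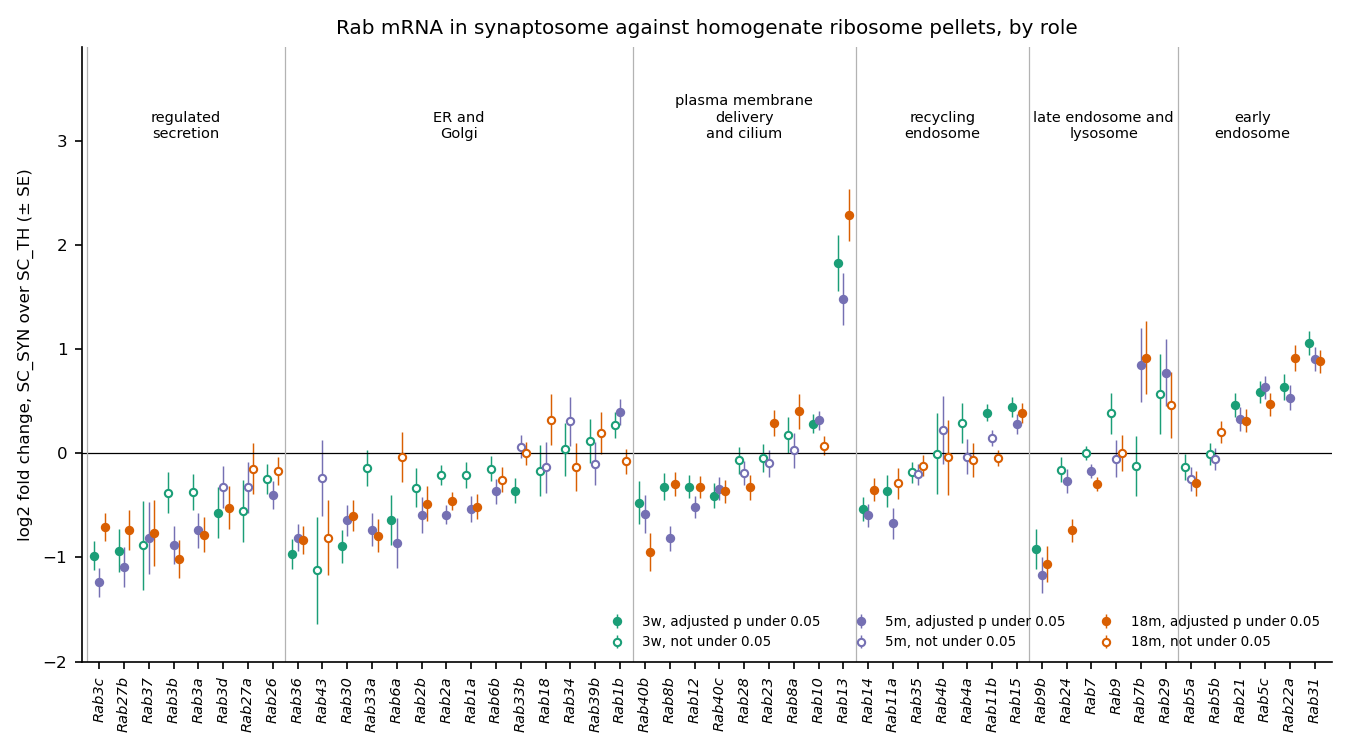
Log2 fold change of SC SYN over SC TH with its SE for the 50 tested Rab genes, grouped by role and ordered within a role by the mean over ages. Filled points passed an adjusted p of 0.05. All points of the regulated secretion group lie below 0, and in the early endosome group Rab21, Rab5c, Rab22a and Rab31 are filled above 0 at each age.

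The direction of these calls leaned on the scaling. When counts were scaled by library size instead of TMM, the median of all genes moved by -0.54, -0.58 and -0.53 at the 3 ages, and 2, 2 and 3 Rab genes were then higher and 36, 41 and 37 lower. After GC and length correction, 16 were higher and 11 lower at 3w, and 12 higher and 17 lower at 5m. Rab13 and Rab31 were called higher at all 3 ages under TMM, library size, median-ratio factors and GC and length correction alike. Rab22a kept its call in all 4 at 18m, while Rab5c at 5m was at 0.04 with library size (adjusted p = 0.72). Lower under all 4 scalings were 4 genes at 3w (Rab36, Rab3c, Rab3d and Rab40c), 15 at 5m and 15 at 18m, and both later sets held Rab3a, Rab3b and Rab3c.

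Ratios of paralogs within a library do not depend on factors that scale the whole library, but they were not corrected for GC content or length. The log2 ratio of Rab5c to Rab5a was 1.28 ± 0.15 in SC TH (SD, n = 12 mice) and 2.06 ± 0.24 in SC SYN, and it was higher in SC SYN in 12 of 12 mice by 0.78 ± 0.16. For Rab8a over Rab8b, a pair of post-Golgi Rabs, the difference was 0.67 ± 0.36 with 12 of 12 mice positive. Rab1a over Rab1b, which act between endoplasmic reticulum and Golgi, moved by -0.61 ± 0.49 and was lower in SC SYN in 12 of 12 mice. Rab3a over Rab3b differed little, by 0.14 ± 0.18, with 9 of 12 mice positive. These ratios are a description without a test. Stretches as long as a read that were identical in another gene made up 0.0% of Rab5c, Rab8a, Rab1a, Rab1b and Rab3a. In Rab5a, Rab8b and Rab3b such stretches were shared with other genes but not with the paralog. Whether reads with mismatches were counted for the other copy was not tested.

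The same compartments compared in the input RNA gave 17 Rab genes higher and 18 lower in input SYN at 3w, of 51 tested (31.7% and 39.3% of all 17860 genes). At 5m 14 were higher and 20 lower (32.6% and 40.1%), and at 18m 16 and 17 (32.9% and 39.4%). The medians of the Rab genes were -0.13, -0.13 and 0.01, beside -0.18, -0.18 and -0.12 over all genes. Of the 6 genes higher in SC SYN at every age, all but Rab21 were also higher in input SYN at every age. Rab21 was higher at 2 ages. Between SC SYN and input SYN, Rab13, Rab22a and Rab31 were called at no age. Of the 10 lower genes, Rab14, Rab36, Rab3c and Rab9b were also lower in input SYN at every age. Of the early endosome Rabs 5, 4 and 5 of 6 were higher, with Rab5c at 0.99 ± 0.08, 1.12 ± 0.08 and 0.75 at 3w, 5m and 18m (adjusted p = 2.2e-11 and 1.3e-12 at 3w and 5m), and none of the 6 was lower. Rab31 was at 0.91 ± 0.08, 0.97 ± 0.08 and 1.08 ± 0.08 (adjusted p = 5.6e-11, 2.2e-11 and 6.8e-13), and Rab22a at 1.04 ± 0.10, 0.88 ± 0.10 and 1.15 ± 0.10 (adjusted p = 4.3e-10, 7.3e-09 and 1.7e-11). Rab39b, a neuronal Rab of the early secretory pathway whose exons are partly overlapped by the opposite-strand gene Gm15063, was higher by 1.26 ± 0.15 at 18m (adjusted p = 1.8e-08).

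Among genes averaging 50 counts or more on the higher side, Rab34 and Rab36, a pair of related Golgi Rabs, were among the 3 lowest in input SYN at each age. Rab34 was at -1.96 ± 0.22, -0.89 ± 0.21 and -1.55 ± 0.19 (adjusted p = 8.5e-09, 0.00052 and 4.4e-08) and Rab36 at -1.49 ± 0.17, -1.40 ± 0.17 and -1.56 ± 0.15 (adjusted p = 6.9e-09, 2.3e-08 and 3.9e-10). The other gene among the 3 was Rab3d at 3w with -1.40 ± 0.22 (adjusted p = 2.2e-06), Rab30 at 5m with -0.92 ± 0.16 (adjusted p = 6.9e-06) and Rab24, an autophagy Rab, at 18m with -0.93 ± 0.09 (adjusted p = 1e-09). Exons of Rab24 are overlapped by the opposite-strand gene Prelid1 over 62.4% of their length, and counting ignored strand, so its value is uncertain. Rab30 turned to 0.28 after GC and length correction.

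Rab3a did not separate input SYN from input TH. It stood at 179, 145, 118 and 190 CPM in input SYN and at 169, 165, 164 and 182 CPM in input TH at 3w, and the log2 fold change was 0.03 ± 0.14, 0.14 ± 0.14 and 0.20 ± 0.13 at the 3 ages (adjusted p = 0.87, 0.36 and 0.19). The libraries of the 2 fractions overlapped. Scaling by library size turned the sign, to -0.54, -0.51 and -0.38, each past the threshold, and it moved the median of all genes by -0.57, -0.65 and -0.57. Under that scaling 5, 4 and 7 Rab genes were higher and 36 lower at each age. After GC and length correction 25, 25 and 27 were higher and 8, 7 and 9 lower.

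The second question was which Rab mRNAs are favoured in the ribosome pellet over the input of the same compartment. In TH more Rab genes were higher than lower in the pellet. Of 52 tested, 24 were higher and 9 lower in SC TH than in input TH at 3w (26.1% and 26.7% of all 18416 genes), 25 and 8 at 5m (29.9% and 32.2%) and 30 and 12 at 18m (31.3% and 32.7%). The median of the Rab genes was 0.19, 0.22 and 0.31, beside -0.05, -0.05 and -0.01 over all genes. Neuronal markers moved the same way, 9, 10 and 10 of 10 higher, nuclear RNAs were lower (5, 6 and 6 of 6), and their part in the result was not tested. At all 3 ages 20 Rab genes were higher and 6 lower (Rab23, Rab24, Rab34, Rab36, Rab3d and Rab43). Other genes overlap the exons of Rab43 over 75.4% of their length, of Rab24 over 62.4%, and of Rab2b, among the 20, over 64.0%. The values of these genes are uncertain.

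Rab3a was higher in the TH pellet by 0.77 ± 0.10, 1.16 ± 0.10 and 1.32 ± 0.10 (adjusted p = 4.8e-07, 2.5e-10 and 1.8e-11). At 18m its 4 input TH libraries stood at 154, 145, 146 and 172 CPM and its SC TH libraries at 365, 389, 386 and 340 CPM, with no overlap. Rab6a, the ubiquitous Golgi Rab6, was higher by 1.52 ± 0.14, 1.13 ± 0.14 and 1.22 ± 0.14 (adjusted p = 1.4e-09, 1.5e-07 and 3e-08), and 19.0% of its exonic bases are overlapped by other genes. Its neuronal paralog Rab6b was higher by 0.30 and 0.41 at 5m and 18m and was not called at 3w. The ratio of Rab6a to Rab6b was higher in the pellet in 12 of 12 mice, by 1.01 ± 0.44 on the log2 scale. Rab5c was higher by 1.01 ± 0.07 at 3w and 1.09 ± 0.07 at 5m (adjusted p = 9.8e-12 and 1.3e-12), Rab18, a Rab of endoplasmic reticulum and lipid droplets, by 1.40 ± 0.13 at 3w (adjusted p = 9.6e-10), and Rab9, which returns cargo from late endosomes to the Golgi, by 1.45 ± 0.14 at 18m (adjusted p = 1.9e-09).

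By role, 5, 5 and 6 of 6 early endosome Rabs were higher in the TH pellet and none was lower. ER and Golgi Rabs had 6, 7 and 9 of 15 higher and 3, 5 and 4 lower, regulated secretion 3, 2 and 4 of 8 higher and 1, 1 and 2 lower, recycling 4, 4 and 5 of 7 higher and 1, 0 and 2 lower, late endosome 2, 2 and 3 of 7 higher and 1 lower at each age, and plasma membrane and cilium 4, 5 and 3 of 9 higher and 3, 1 and 3 lower. Among the lower genes Rab34 was at -1.15 ± 0.18, -0.92 ± 0.18 and -1.002 ± 0.16 (adjusted p = 6.4e-06, 6e-05 and 6.5e-06). Rab36 followed at -0.83 ± 0.09, -0.59 ± 0.08 and -0.78 ± 0.08 (adjusted p = 1.3e-08, 8.2e-07 and 4.6e-09) and Rab3d at -0.61 ± 0.14, -0.51 ± 0.12 and -0.44 ± 0.12 (adjusted p = 0.00057, 0.00072 and 0.0027). Under all 4 scalings 21, 23 and 28 genes stayed higher and 5, 6 and 9 lower. After GC and length correction 27 were higher and 5 lower at 3w, and with library size 23 were higher and 12 lower at 5m.

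In synaptosomes fewer Rab genes were called between the pellet and its input, and the test was less precise. The median SE of a Rab gene was 0.181, 0.177 and 0.167 at 3w, 5m and 18m, against 0.099, 0.093 and 0.092 in TH. The lower count alone therefore does not show a smaller difference. Of 48 tested Rab genes 4 were higher and 2 lower in SC SYN than in input SYN at 3w (9.04% and 9.5% of all 14301 genes), 2 and 4 at 5m (9.66% and 10.3%), and 3 and 2 at 18m (5.87% and 6.7%). Called at all 3 ages were Rab5c and Rab7 as higher and Rab15 as lower, and 39 genes were called at none. Rab7, the Rab of late endosome maturation, was higher by 0.54 ± 0.08, 0.51 ± 0.08 and 0.51 ± 0.08 (adjusted p = 3.9e-05, 4.2e-05 and 7e-05). Rab5c was higher by 0.53 ± 0.12, 0.56 ± 0.12 and 0.52 ± 0.12 (adjusted p = 0.0039, 0.0017 and 0.0049). Rab15, an endocytic recycling Rab of neurons, was lower by -0.67 ± 0.10 at 3w and -0.44 ± 0.10 at 18m (adjusted p = 4.7e-05 and 0.0032).

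Other genes were called at 1 or 2 ages. Rab28, a cilium Rab, was lower at 5m (-0.66 ± 0.16, adjusted p = 0.0035) and 18m (-0.77 ± 0.15, adjusted p = 0.0015). Rab3c was lower at 3w (-0.54 ± 0.16, adjusted p = 0.018) and 5m (-0.64 ± 0.16, adjusted p = 0.005). When each of the 4 mice was left out in turn, both calls of Rab28 and the 5m call of Rab3c were kept in 4 of 4 fits, and the 3w call of Rab3c in 2 of 4. Rab28 did not keep its 5m call under all 4 scalings, while its 18m call and both calls of Rab3c were kept under all 4. The call of Rab5a at 3w (0.48 ± 0.14, adjusted p = 0.018) was also kept in 2 of 4. Rab9 at 18m (0.73 ± 0.21, adjusted p = 0.022) was kept in 1 of 4 fits and Rab27b at 5m (-0.75 ± 0.26, adjusted p = 0.043) in 0 of 4. Rab3a was at 0.29 ± 0.19, 0.24 ± 0.19 and 0.31 ± 0.19 and was not called (adjusted p = 0.32, 0.42 and 0.32). Without mouse 189 the count at 3w was 3. At 5m library size gave 3 higher and 3 lower genes, and GC and length correction gave 5 and 5.

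**Figure D3:**
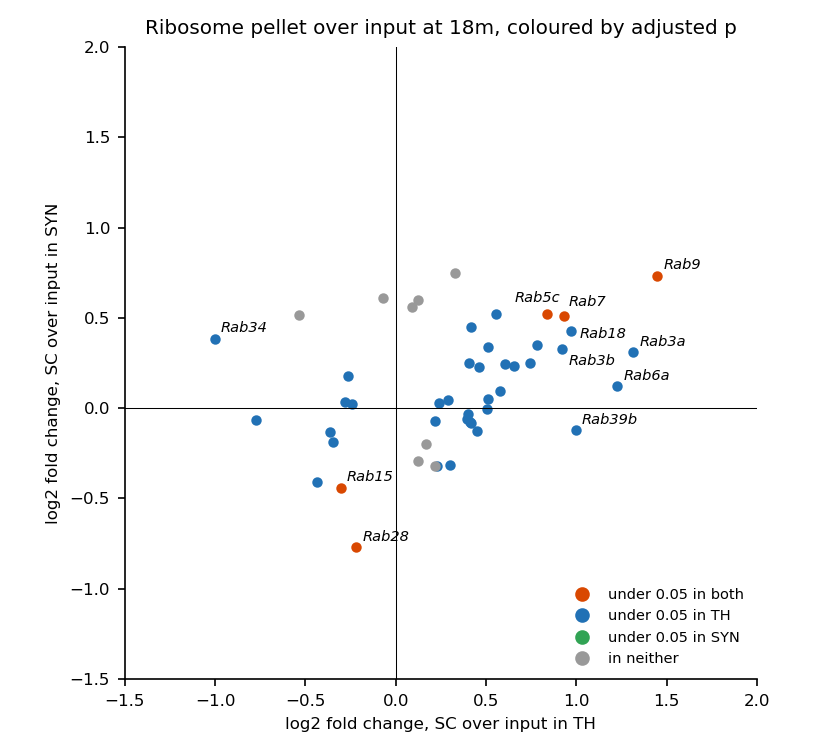
Log2 fold change of the ribosome pellet over its input at 18m, in TH on the horizontal and in SYN on the vertical axis, for the Rab genes tested in both compartments. Colours give where the adjusted p was under 0.05. Rab9, Rab5c, Rab7, Rab15 and Rab28 passed in both, most other genes right of 0 passed in TH alone, and no gene passed in SYN alone.

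The third question was how Rab mRNA changed with age. Comparisons of 5m with 3w and of 18m with 5m share the 5m libraries. In SC SYN 2 of 48 Rab genes fell from 3w to 5m and none rose, against 4.02% of all 14240 genes that fell and 4.02% that rose. The median over Rab genes was -0.14, beside -0.01 over all genes. An unadjusted p under 0.05 was reached by 10 of the 48 Rab genes, beside 3722 of all 14240 genes. DESeq2 called 4, adding Rab2a at -0.35 and Rab33a at -0.66. In SC TH 3 of 50 rose and 3 fell (9.48% and 8.47% of all 16427 genes). In input TH 2 of 52 rose and 6 fell (4.76% and 7.05% of all 18078 genes). In input SYN none of 45 was called (3.22% of all 12975 genes in either direction), and DESeq2 called Rab15 at -0.27 and Rab31 at -0.38. There 5 Rab genes had an unadjusted p under 0.05, beside 2197 of all 12975 genes.

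Rab7b, a Rab of late endosome to Golgi transport, had the largest fall in each of the 3 fractions where it was tested. Its counts were 78, 37, 46 and 44 in input TH at 3w, 20, 7, 10 and 6 at 5m and 10, 6, 5 and 12 at 18m. In SC SYN they were 20, 29, 12 and 24 at 3w, 8, 12, 17 and 17 at 5m, and 8, 19, 18 and 8 at 18m. In CPM no 5m library reached a 3w library in input TH, SC TH or SC SYN, and the log2 fold changes were -2.26 ± 0.30 in input TH (adjusted p = 9.6e-05), -2.45 ± 0.34 in SC TH (adjusted p = 0.0002) and -1.49 ± 0.28 in SC SYN (adjusted p = 0.0055). Each call held when each of the 8 mice was left out in turn. In input SYN, where Rab7b did not pass the filter on low counts, the mean went from 3.75 to 1.55 CPM. These are low counts, and each library carries a large counting error.

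Rab31 fell as well. In input TH it stood at 56.2, 48.7, 49.1 and 50.5 CPM at 3w and at 35.1, 42.0, 38.9 and 39.2 CPM at 5m (-0.41 ± 0.06, adjusted p = 0.00018), without overlap. In SC SYN it stood at 115, 122, 83.7 and 98.8 CPM at 3w and at 67.0, 71.1, 77.7 and 84.0 CPM at 5m. The lowest 3w library there lay at the level of the highest 5m library, the log2 fold change was -0.51 ± 0.13 (adjusted p = 0.026), and the call was kept in 4 of 8 fits that left out 1 mouse. In SC TH it went from 53.0, 54.7, 59.7 and 39.8 CPM to 42.6, 42.1, 42.2 and 40.1 CPM, with 1 of the 3w libraries below all 5m libraries, and the change was -0.35 ± 0.10 (adjusted p = 0.021), kept in 5 of 8 such fits. In input SYN the estimate was -0.38 ± 0.11 and did not pass the threshold (adjusted p = 0.062). Markers of oligodendrocytes fell over the same interval in all 4 fractions, 9 of 10 in SC SYN, SC TH and input SYN and 10 of 10 in input TH, and their summed level in SC SYN went from 9543 to 11666 CPM down to 3607 to 4038 CPM. Microglia markers rose, 7 of 10 in SC SYN and 5 of 10 in SC TH and in input SYN. In input TH their summed level stayed similar, at 219 to 249 CPM at 3w and 216 to 243 CPM at 5m. The part of these cells in the changes of Rab7b and Rab31 was not tested.

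Rab8b, which delivers vesicles from the Golgi to the plasma membrane, rose from 3w to 5m in the homogenate. In input TH it stood at 26.4, 23.8, 29.9 and 27.5 CPM and then at 31.1, 33.1, 34.6 and 34.6 CPM (0.31 ± 0.08, adjusted p = 0.013). In SC TH it went from 22.6, 19.8, 21.8 and 20.7 CPM to 30.6, 28.0, 25.8 and 28.6 CPM (0.39 ± 0.10, adjusted p = 0.013). The ages did not overlap in either fraction. In SC SYN it was at -0.12 ± 0.16 (adjusted p = 0.65) and in input SYN at 0.08 ± 0.21 (adjusted p = 0.90).

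Calls in 1 fraction were made for other genes. In SC TH Rab3b stood at 28.0, 22.6, 32.3 and 24.4 CPM at 3w and at 46.5, 30.7, 41.3 and 42.9 CPM at 5m (0.56 ± 0.12, adjusted p = 0.0053). Only the lowest 5m library fell within the 3w range. Rab4a, a Rab of rapid endosome recycling, stood there at 9.52, 10.4, 12.4 and 9.29 CPM and then at 18.2, 13.5, 15.1 and 14.9 CPM (0.53 ± 0.13, adjusted p = 0.011), with no overlap. Rab18 fell from 99.9, 109, 88.4 and 103 CPM to 58.8, 94.0, 81.8 and 60.5 CPM (-0.46 ± 0.15, adjusted p = 0.042), but 1 of the 5m libraries lay above the lowest 3w library and the call was kept in 3 of 8 fits. Rab3a was at 0.26 ± 0.11 (adjusted p = 0.12), with libraries from 214 to 335 CPM at 3w and from 272 to 369 CPM at 5m. The number of called Rab genes in SC TH was 3 without mouse 188 and 11 without mouse 192, and after GC and length correction 5 rose and 2 fell.

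In input TH Rab27a, a Rab of lysosome-related organelles, rose from 4.52, 4.79, 4.20 and 4.60 CPM to 7.82, 6.08, 5.93 and 7.43 CPM (0.59 ± 0.15, adjusted p = 0.016). Rab34 fell from 17.7, 16.0, 15.7 and 13.9 CPM to 12.1, 8.46, 11.4 and 9.30 CPM (-0.62 ± 0.12, adjusted p = 0.003). The ages did not overlap for either gene. Also lower at 5m were Rab33a, a Golgi Rab (-0.39), Rab1b (-0.28) and Rab6b (-0.19). Of the 6 genes that fell in input TH, Rab1b, Rab31, Rab34 and Rab7b kept their calls under all 4 scalings, and Rab33a and Rab6b did not. Rab3a was at -0.16 ± 0.07 (adjusted p = 0.15) in input TH, at -0.07 ± 0.17 (adjusted p = 0.88) in input SYN and at -0.13 ± 0.20 (adjusted p = 0.71) in SC SYN.

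**Figure D4:**
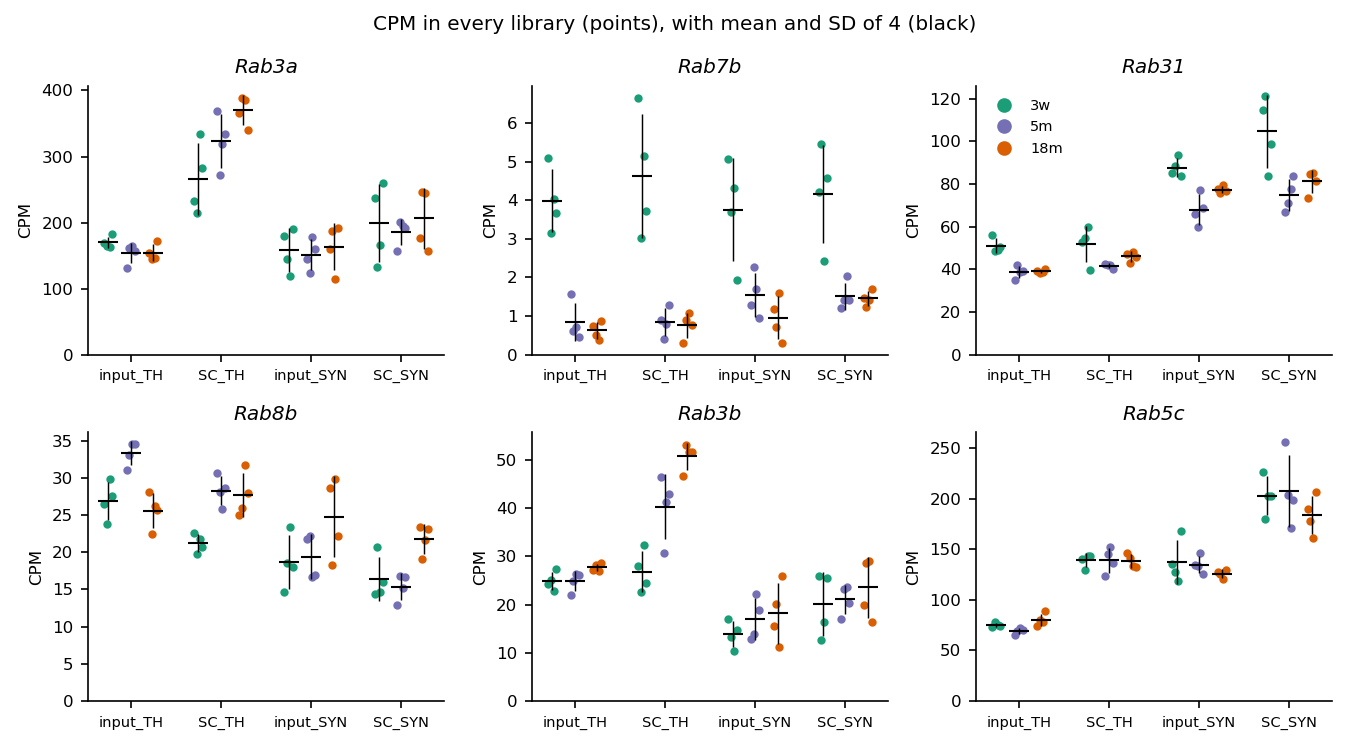
CPM of 6 Rab genes in each of the 48 libraries, by fraction and age, with mean and SD of the 4 libraries in black. Rab7b and Rab31 are highest at 3w in each fraction, Rab3a and Rab3b are highest in SC TH, and Rab5c is highest in SC SYN.

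From 5m to 18m no Rab gene was called in 3 of the 4 fractions by edgeR. In SC SYN none of 48 was called (0.014% of all genes), and DESeq2 called none. There 10 Rab genes had an unadjusted p under 0.05, beside 2473 of all 14240 genes. In SC TH none of 50 was called (2.17% of all genes), and DESeq2 called Rab7, at 0.17. There 7 Rab genes had an unadjusted p under 0.05, beside 2877 of all 16427 genes. In input SYN none of 45 was called (0.139% of all genes), and DESeq2 called none. There 3 Rab genes had an unadjusted p under 0.05, beside 1214 of all 12975 genes. Rab3a was at 0.16 ± 0.19 in SC SYN, 0.20 ± 0.11 in SC TH, 0.09 ± 0.16 in input SYN and 0.04 ± 0.07 in input TH (adjusted p = 0.69, 0.38, 0.90 and 0.69). The median change over Rab genes was 0.14 in SC SYN and 0.07 in SC TH, beside 0.01 over all genes in each. With 4 mice against 4, the median SE of a Rab gene in SC SYN was 0.159, which limits the changes that could be detected.

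In input TH 4 of 52 Rab genes rose and 9 fell from 5m to 18m, against 8.18% and 7.35% of all genes. Rab1b, of endoplasmic reticulum to Golgi traffic, went from 72.5, 74.2, 74.3 and 71.0 CPM to 83.0, 96.2, 87.2 and 92.6 CPM (0.33 ± 0.06, adjusted p = 0.0028), without overlap. Rab5c went from 64.9, 69.3, 71.9 and 70.1 CPM to 74.4, 80.2, 77.7 and 88.5 CPM (0.25 ± 0.06, adjusted p = 0.0091), also without overlap. Rab35, of endosome recycling, went from 48.3, 56.3, 52.4 and 52.3 CPM to 54.8, 59.0, 57.3 and 58.3 CPM (0.17 ± 0.05, adjusted p = 0.036), with overlap and a call in 2 of 8 fits that left out 1 mouse. The fourth riser was Rab4b, whose exons are overlapped over 69.4% of their length and whose value is uncertain.

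Of the genes that fell, Rab39b went from 14.8, 19.7, 17.5 and 17.7 CPM to 13.4, 11.2, 13.9 and 12.8 CPM (-0.41 ± 0.10, adjusted p = 0.011), without overlap. Rab8b went from 31.1, 33.1, 34.6 and 34.6 CPM to 28.1, 22.4, 26.2 and 25.6 CPM (-0.35 ± 0.08, adjusted p = 0.008), close to its values at 3w and again without overlap. Rab30, a Golgi Rab, went from 33.6, 41.4, 40.2 and 42.3 CPM to 35.2, 27.5, 35.8 and 25.6 CPM (-0.31 ± 0.10, adjusted p = 0.047), with overlap and a call in 3 of 8 fits. The other 6 (Rab27b, Rab2a, Rab23, Rab11a, Rab22a and Rab3c) fell by 0.18 to 0.29 on the log2 scale.

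The 13 called genes differed in base composition by direction. The 4 genes that rose had exonic GC contents of 54.2% to 58.9% and the 9 that fell 37.9% to 47.6%, while the median of the 59 Rab genes was 49.1%. Over the 52 tested genes the log2 fold change and GC content had a Spearman rho of 0.686 in input TH. In SC SYN the rho for the same ages was -0.618 over 48 genes, and in input SYN -0.551 over 45 genes, so the slope ran the other way. These are descriptions over genes measured in the same libraries, with no test. After GC and length correction none of the 13 kept its call, and Rab28 was called instead, at 0.36. The count of called genes was 5 without mouse 192, 7 without mouse 193, 5 without mouse 194, 5 without mouse 196 and 4 without mouse 198, and 16 (4 higher, 12 lower) without mouse 191. With library size 2 rose and 13 fell.

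**Figure D5:**
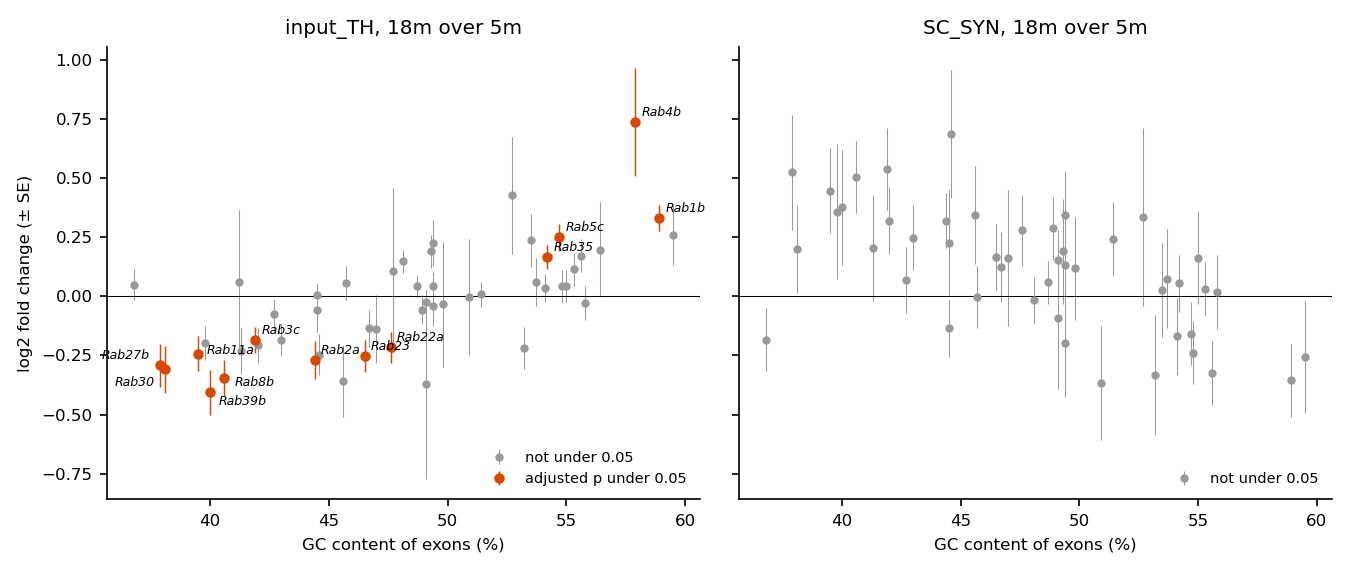
Log2 fold change of 18m over 5m with its SE against the GC content of exons (%), for Rab genes tested in input TH (left) and in SC SYN (right). Orange points passed an adjusted p of 0.05. In input TH the points rise to the right and all 13 orange points follow that slope, and in SC SYN they fall to the right and none passed.

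Whether an age change differed between fractions was tested as an interaction. Between SC SYN and SC TH none of 50 Rab genes was called for 5m over 3w (0.0301% of all genes) or for 18m over 5m (0%), and none by DESeq2. An unadjusted p under 0.05 was reached by 6 and 8 Rab genes, beside 1324 and 2855 of all 16630 genes. Between SC SYN and input SYN none of 48 was called at either step (0% and 0%), and none by DESeq2. An unadjusted p under 0.05 was reached by 0 and 0 Rab genes, beside 474 and 393 of all 14301 genes. Between input SYN and input TH none of 51 was called for 5m over 3w (0.0224%), and none by DESeq2. An unadjusted p under 0.05 was reached by 3 Rab genes, beside 1438 of all 17860 genes. The remaining 3 tests called 5 genes. Rab11a, of recycling endosomes, changed differently from 5m to 18m in input SYN and input TH (2.42% of all genes), by 0.64 ± 0.18 (adjusted p = 0.049), with 0.39 in input SYN and -0.24 in input TH. It kept the call in 1 of 8 fits that left out 1 mouse and was not called with median-ratio factors, in a fit of only these groups or after GC and length correction.

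Between SC TH and input TH 2 of 52 were called for 5m over 3w (2.35% of all genes). Rab1b differed by 0.39 ± 0.09 (adjusted p = 0.029), with 0.13 in SC TH and -0.28 in input TH. Rab3b differed by 0.54 ± 0.14 (adjusted p = 0.043), with 0.56 in SC TH and -0.01 in input TH. They kept their calls in 5 and 3 of 8 fits, and neither was called after GC and length correction. For 18m over 5m 2 of 52 were called (1.78%). Rab1a differed by 0.50 ± 0.12 (adjusted p = 0.038), with 0.29 in SC TH and -0.21 in input TH, and Rab2a, also of endoplasmic reticulum to Golgi traffic, by 0.45 ± 0.11 (adjusted p = 0.039), with 0.18 and -0.27. Each kept its call in 2 of 8 fits, and with the mouse as a block Rab1a missed the threshold (adjusted p = 0.051). In the same paired fit 5 genes were called between input SYN and input TH for 18m over 5m in place of 1, and 1 between SC TH and input TH in place of 2.

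The regulators of Rab proteins were followed as lists, to be read against the 31.1%, 32.1% and 29.9% of all genes that were higher in SC SYN than in SC TH at 3w, 5m and 18m and the 32.4%, 35.8% and 32.2% that were lower. Of 36 tested GAP genes 3, 3 and 4 were higher in SC SYN than in SC TH at the 3 ages and 18, 17 and 17 lower (median log2 fold change -0.35, -0.31 and -0.30). The GEF list had 5, 8 and 7 of 36 higher and 15, 15 and 14 lower. Among them Rin2, an activator of Rab5, was higher by 1.35, 1.34 and 1.55, while Ric1, an activator of Rab6, was lower by -1.17, -1.09 and -0.99. The list of GDI and prenylation genes had 7 of 14 higher at each age and 2, 4 and 4 lower. Rabac1, which binds prenylated Rabs, was higher by 1.66 at 3w and 1.59 at 5m, and Yipf3, a Golgi membrane protein of the YIP family, by 1.45, 1.42 and 1.19. Chm, which presents Rabs to the prenylating enzyme, was lower by -0.77 at 3w and -0.95 at 5m.

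Of 49 tested effector genes 11, 11 and 16 were higher and 19, 23 and 15 lower. Sytl5, an effector of Rab27, was higher by 1.77, 1.42 and 1.30, Bicd1, which links Rab6 vesicles to dynein, lower by -1.15, -1.43 and -0.77, and Erc2 of the presynaptic active zone lower by -1.08 at 5m. These lists share the scaling shift described above for the Rab genes.

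With age, in SC SYN from 3w to 5m, 2 of 36 GEF genes rose and 0 fell, 2 of 36 GAP genes rose and 1 fell, and 4 of 46 effectors rose and 2 fell. Among 14 GDI and prenylation genes 0 were called, and of all genes 4.02% rose and 4.02% fell. Rims1, an active zone scaffold that binds Rab3, fell by 0.77 on the log2 scale and Bicd1 by 0.72. Mlph, an effector of Rab27a, rose by 2.09, and Dennd4b and Rin2, both GEFs, by 0.75 and 0.57. The GAP Usp6nl, which acts on Rab5, fell by 0.64 in SC SYN, 0.75 in SC TH, 0.76 in input SYN and 0.52 in input TH. From 5m to 18m 0 genes of the 4 lists were called in SC SYN or input SYN, and in SC TH 2 of 48 effectors fell (Erc1 by 0.38 and Mical3 by 0.31). In input TH, where 8.18% of all genes rose and 7.35% fell over that interval, 4 of 37 GAP genes rose and 6 fell, 2 of 38 GEF genes rose and 5 fell, 4 of 50 effectors rose and 2 fell, and 2 of 14 GDI and prenylation genes rose and 1 fell.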

How the data were processed

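Cortex of 12 mice was fractionated into total homogenate and synaptosomes, each as input and as ribosome pellet, and rRNA-depleted directional libraries with molecular identifiers were sequenced; whether the identifiers were used is not given in the sources used here. The authors demultiplexed with bcl2fastq 2.20.0.422, aligned to GRCm38 with TopHat2 2.1 and counted reads per Ensembl gene with featureCounts without strand, and deposited these raw counts for all 48 libraries without pooling replicates. Rows were matched to GENCODE M21 by Ensembl ID, and rows without an entry held 0.0596% of counts.

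The tests used edgeR 4.0.16 under R 4.3.3 with limma 3.58.1, with TMM scaling, filterByExpr by group, quasi-likelihood test over all genes, Benjamini-Hochberg adjustment, threshold 0.05, prior count 2. Fits held the 12 libraries of 1 fraction for age and the 24 libraries of 2 fractions otherwise, 28 comparisons in all. SE is that of the fitted log2 fold change. CPM used TMM factors over all 48 libraries and was divided by exonic kb to compare genes. The fits were tested on simulated counts. Alternatives were DESeq2 1.42.0, library size, median-ratio factors, no filter, a minimum of 10 counts in each library, fits restricted to the compared groups, no mitochondrially encoded genes, GC and length correction, a replicate block and leaving out each mouse. Samples of the same number came from 1 animal, so the numbers pair the fractions by design; correlations of their deviations had medians of -0.010 to 0.109. Paralog ratios used 13 of 22 listed pairs, those with at least 10 counts of both genes in every library, with 0.5 added to counts. Tables were handled with Python 3.11.15.

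Values with a test were given for the 3 called Rab genes with the largest rise and the 3 with the largest fall in a comparison (with a mean count of 50 or more on the higher side), for Rab3a, and for genes called in 2 fractions; other genes named in counts of 5 or fewer were chosen after their values were seen. Rab7b is below 50 counts in some fractions and is named under the second part of that rule. In regulator lists up to 2 called genes per direction were named. The Rab genes, roles, markers and regulator lists were chosen with earlier results of these data known. Mice were separate animals, and intervals from counts cover counting error only.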

Additional observations from a re-analysis of the deposited data

Results flagged for a closer look

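In 2 of 67 groups of 4 libraries examined, 1 library of a Rab gene lay far from the other 3, where chance flags about 1 in 20 groups. Rab27b stood at 18.4 CPM in SC TH of mouse 194 at 5m, beside 23.5 to 23.9 CPM in its mates. Rab3c stood at 87.8 CPM in SC SYN of mouse 191 at 5m, beside 140 to 144 CPM.

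The age change differed between 2 fractions, by an interaction test, for 5 Rab genes. From 3w to 5m the change in SC TH exceeded that in input TH by 0.39 for Rab1b and by 0.54 for Rab3b on the log2 scale. From 5m to 18m it did so by 0.50 for Rab1a and 0.45 for Rab2a. From 5m to 18m the change in input SYN exceeded that in input TH by 0.64 for Rab11a.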

How the results depend on the processing

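Of 420 recomputed counts of called Rab genes 361 stayed within 1.5 times the reported one, and of 1715 recomputed fold changes of single genes 1596 kept their side of the threshold, 94 lost it, 20 gained it and 5 reversed. Among fold changes called in neither setting, 30 changed sign. The cause was not tested. DESeq2 called 4 genes for SC SYN 5m over 3w, 1 for SC TH 18m over 5m, 2 for input SYN 5m over 3w and 5 for the input SYN against input TH interaction at 18m over 5m. Library size gave 38 for SC SYN over SC TH at 3w, 3 for that interaction and 1 for the SC TH against input TH interaction at 5m over 3w. Without a filter 1 was called for input SYN 18m over 5m, and 4 and 5 for these 2 interactions. At least 10 counts in every library gave 1 for SC SYN 5m over 3w and 4 for the input interaction. With only the groups compared, input TH 18m over 5m gave 6, and the input, 5m and 18m SC TH interactions gave 0, 1 and 0. GC and length correction gave 2 for input SYN 5m over 3w, 1 for input TH 18m over 5m, 11 and 10 for SC SYN over input SYN at 3w and 5m, and 0, 0 and 1 for the same 3 interactions. It reversed Rab27b in SC SYN over SC TH at 3w (0.13) and Rab30 in input SYN over input TH at 5m (0.28), and library size reversed Rab3a there (-0.54, -0.51 and -0.38 at 3w, 5m and 18m). The replicate block gave 5 for the input interaction and 1 for the 18m SC TH interaction, and among named genes it changed the calls of Rab3a (SC SYN over SC TH at 3w, -0.40) and Rab1a (18m SC TH interaction). Leaving out 1 mouse gave 1 to 2 for SC SYN 5m over 3w (1 without mouse 188, 191, 192 or 193), 3 to 11 for SC TH 5m over 3w, 0 to 1 for SC TH 18m over 5m and for input SYN 5m over 3w, 4 to 17 for input TH 18m over 5m, 3 to 6 for SC SYN over input SYN at 3w, and 0 to 3, 0 to 7 and 0 to 4 for the input, 5m and 18m SC TH interactions. Genes under 1 CPM per kb and the shallow input SYN libraries limit what could be called.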
